A study of Arabidopsis thaliana with 36 samples.

Results

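The genes described here are 10 components of the Arabidopsis circadian clock, taken by their locus identifiers from the 28775 genes of the count table: LHY (AT1G01060), CCA1 (AT2G46830), RVE8 (AT3G09600), PRR9 (AT2G46790), PRR7 (AT5G02810), PRR5 (AT5G24470), TOC1 (AT5G61380), GI (AT1G22770), ELF4 (AT2G40080) and LUX (AT3G46640). All 10 were in the table and passed the filter on low counts in each of the fits. RNA was taken from the lower 1 cm of roots of 5-d-old seedlings that had been moved to plates with 140 mM NaCl (salt) or to mock plates. At 1 h after transfer the lines were della5x and Ler, and at 8 h they were della5x, gai, ga4 and Ler, which gave 12 groups of 3 replicates and 36 libraries. The line della5x carries the mutant alleles rgl3-4, rgl2-1, rgl1-1, rga-t2 and gai-t6 of all DELLA repressors of gibberellin (GA) signalling, gai holds a stabilised GAI, one of these repressors, ga4 has a defect late in the synthesis of GA, and Ler (Landsberg erecta) is their wild-type. Each replicate pooled the root pieces of many seedlings, so that fewer cells of a type and less RNA per cell cannot be told apart.

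The clock of Arabidopsis is a set of genes that repress each other in turn over the day. LHY and CCA1, a pair of related MYB factors, peak around dawn and repress the genes of the evening. RVE8, a relative of both, activates evening genes, and PRR9, PRR7, PRR5 and TOC1 (PRR1) follow as successive waves of repressors of LHY and CCA1. GI, a large protein of the late day, steadies light-dependent protein turnover, and ELF4 and LUX form with ELF3 the evening complex, a repressor of PRR9, PRR7 and LUX itself. The study's methods state that harvests were made at one hour of the afternoon to keep the clock out of the comparison. The labels give the time since transfer and no hour of the day, so that the duration of the treatment and the hour at which plants were moved cannot be told apart in these data.

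Promoter windows of the genes that the results turn on are shown first, because known clock and stress motifs lie in them. Each runs from 250 bases before to 50 bases after the annotated start of the gene in the RefSeq annotation of TAIR10.1, on the strand of the gene, and comes from the Col-0 reference and not from Ler. Capitals mark the evening element AAAATATCT, the site through which MYB factors such as CCA1 and RVE8 bind evening genes, read on either strand (AGATATTTT on the other), and the G-box CACGTG, which reads the same on both strands.
The windows of the dawn pair are chr2:19245341-19245640 (plus strand) for CCA1 and chr1:37822-38121 (minus strand) for LHY.
CCA1: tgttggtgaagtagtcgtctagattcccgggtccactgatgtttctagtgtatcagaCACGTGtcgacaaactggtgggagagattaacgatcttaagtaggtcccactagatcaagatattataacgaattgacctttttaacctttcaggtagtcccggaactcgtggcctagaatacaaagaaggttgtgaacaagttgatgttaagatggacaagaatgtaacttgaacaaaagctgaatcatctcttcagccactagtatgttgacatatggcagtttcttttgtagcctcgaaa
LHY: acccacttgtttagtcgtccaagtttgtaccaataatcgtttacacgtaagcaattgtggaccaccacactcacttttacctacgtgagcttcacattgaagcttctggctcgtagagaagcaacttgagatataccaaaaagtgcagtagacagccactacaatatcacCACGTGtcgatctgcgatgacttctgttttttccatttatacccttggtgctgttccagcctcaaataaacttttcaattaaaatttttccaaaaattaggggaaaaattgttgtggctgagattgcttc
The windows of PRR5 and LUX are chr5:8358497-8358796 (minus strand) and chr3:17182792-17183091 (plus strand).
PRR5: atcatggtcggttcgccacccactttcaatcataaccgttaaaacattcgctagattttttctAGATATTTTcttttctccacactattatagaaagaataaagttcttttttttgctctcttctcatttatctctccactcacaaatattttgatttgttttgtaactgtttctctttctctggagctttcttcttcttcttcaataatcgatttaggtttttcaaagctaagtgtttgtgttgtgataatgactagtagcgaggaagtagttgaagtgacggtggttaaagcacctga
LUX: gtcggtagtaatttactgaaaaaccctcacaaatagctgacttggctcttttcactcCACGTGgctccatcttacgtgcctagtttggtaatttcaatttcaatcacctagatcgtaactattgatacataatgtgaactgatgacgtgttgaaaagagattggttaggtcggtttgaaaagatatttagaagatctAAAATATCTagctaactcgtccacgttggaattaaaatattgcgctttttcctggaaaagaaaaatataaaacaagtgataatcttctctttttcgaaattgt
Both CCA1 and LHY hold a G-box and no evening element, PRR5 holds an evening element, and LUX holds one of each. Over all 10 genes, 4 windows held an evening element (PRR9, PRR5, TOC1 and LUX), against 2.82% of the 27443 promoters of protein-coding genes. A G-box was found in 6 windows (LHY, CCA1, RVE8, PRR9, PRR7 and LUX), against 7.68% of those promoters. The abscisic acid response core ACGTGG or ACGTGT, which can overlap a G-box, was found in 8 windows, all but PRR5 and ELF4, against 18.9%, and the LUX-binding site GATACG or GATTCG in PRR9 and ELF4, against 14.5%. The CCA1-binding site AAAAATCT was found in PRR5 alone among the 10, against 7.88%. Over the 1000 bases before the start, evening elements were found in 5 genes (PRR5, TOC1, GI, ELF4 and LUX, against 7.24% of promoters), the G-box in the same 6 as above (14.8%), the LUX-binding site in 7 (39.8%) and the abscisic acid response core in 9 (39.2%). The CCA1-binding site was found there in 3 genes (LHY, PRR9 and PRR5, against 21.1%). The evening element of PRR9 lies after its start. In the shorter windows, so do the G-box and abscisic acid response core of RVE8 and the core of GI. In the reference, LUX (chromosome 3, bases 17183042 to 17186959) overlaps the antisense gene AT3G46650 over 1507 bases. Because the sources give neither the counting mode nor the use of strand, reads of the overlap cannot be assigned. AT3G46650 had 0 to 160 counts a library beside 744 to 2256 counts for LUX. The other 9 genes overlap no annotated gene.

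The library totals were 16772984 to 23811804 counts, with a median of 18884857. The second salt replicate of della5x at 1 h lay farthest from its own group, at 68.3 and 90.3 times the sampling noise from its replicates, where no other pair of replicates was over 38.7 times. Its count column, and that of the third mock replicate of ga4, bear the title of the sample without a suffix that the title carries, and were matched on the rest of the title. RGL1, a DELLA gene mutated in della5x, lay at 0 to 0.307 CPM (counts scaled to library size and normalised by TMM) in the 12 libraries of della5x, against 4.03 to 8.55 CPM in the other lines. RGA (27.4 to 53.5 against 73.2 to 120 CPM) and GAI (2.85 to 11.5 against 12.6 to 23.8 CPM) were lower in della5x without overlap, RGL2 overlapped (2.92 to 12.3 against 9.86 to 19.3 CPM), and RGL3, also mutated there, was higher in della5x (152 to 440 against 2.65 to 10.06 CPM). The alleles of gai and ga4 cannot be checked by the level of the mutated gene. The 8 root markers (PLT1, PLT2, SCR, SHR, PIN2, COBL9, EXPA7 and WOX5) had counts in each group and summed to 227 to 517 CPM a library. At 1 h their sum was lower on salt, with 227 to 359 CPM on salt against 372 to 396 CPM on mock in della5x and 339 to 369 against 406 to 424 CPM in Ler, and at 8 h the groups overlapped in della5x, gai, ga4 and Ler. The 8 genes of green tissue (RBCS1A, RCA, CA1, PSAF and 4 LHCB genes, of which the 3 LHCB1 copies are nearly identical) summed to 32.5 to 263 CPM, and at most 2 of them were without any count in a group. At 8 h this sum was lower on salt, with 32.5 to 48.8 CPM on salt against 58.9 to 91.6 CPM on mock in della5x, 97.2 to 179 against 220 to 263 CPM in gai, and 65.5 to 93.8 against 134 to 169 CPM in Ler. In ga4 it was 62.4 to 129 CPM on salt and 102 to 215 CPM on mock, which overlap. At 1 h the values on salt and mock overlapped in both lines (34.7 to 92.5 against 42 to 60.9 CPM in della5x, 147 to 171 against 76.7 to 153 CPM in Ler). The part of either tissue signal in the clock results below was not tested.

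The clock genes lay at very different depths. CCA1, LHY, RVE8 and PRR9 were sparsely counted, with medians of 71.5, 53, 107.5 and 43.5 counts a library and lows of 8, 16, 31 and 9. PRR7, PRR5, TOC1, GI, ELF4 and LUX had medians of 873, 493.5, 2745.5, 1819, 1913 and 1268 counts. Over the 12 groups the mean level of CCA1 spanned the widest range, 25.7-fold, with its highest mean of 19.4 CPM in Ler on salt at 1 h and its lowest of 0.756 CPM in ga4 on mock at 8 h. PRR9 spanned 12.6-fold and LHY 4.96-fold, while TOC1 spanned 1.52-fold.

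**Figure D1:**
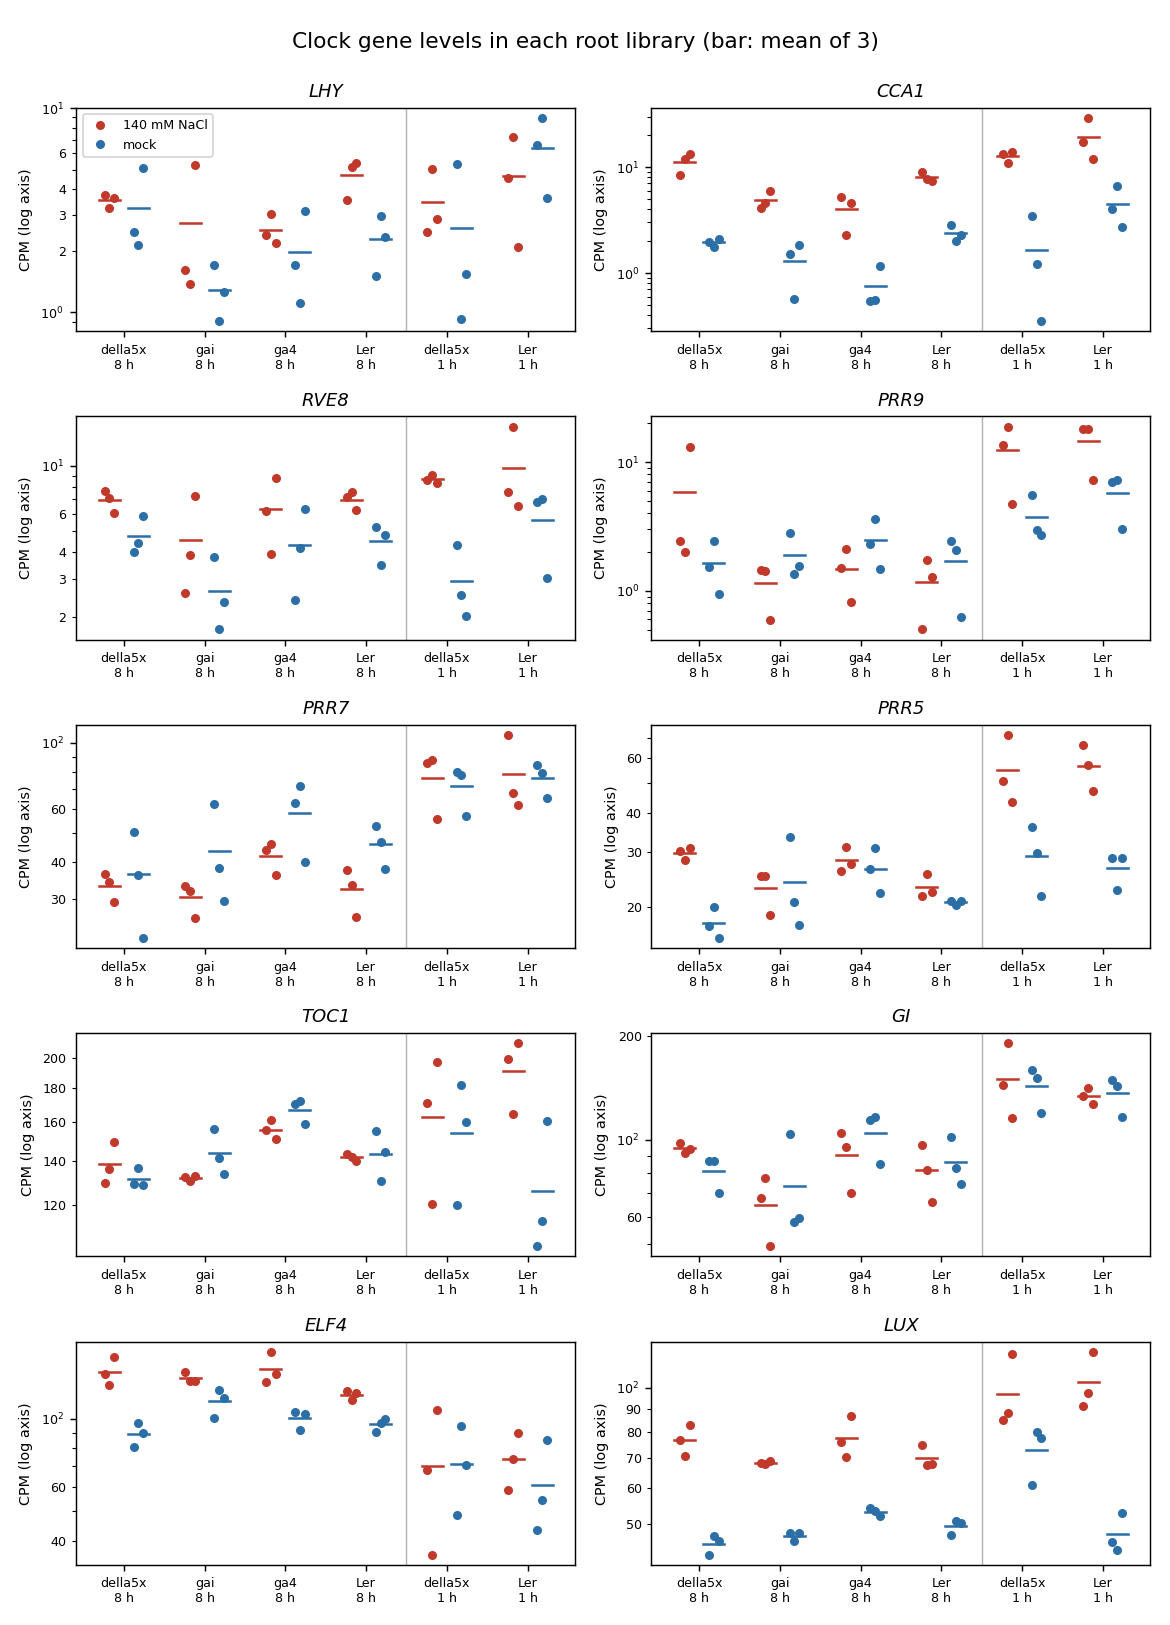
TMM-normalised CPM (log axes) of the 10 clock genes in each of the 36 libraries, with 140 mM NaCl (red) left of mock (blue) and each bar at the mean of 3 replicates; the line divides 8 h (left) from 1 h (right). CCA1 lies above its mock libraries in all 6 pairs of groups, LHY does not, and PRR7 and GI have lower means at 8 h than at 1 h in every group.

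Salt against mock asks which clock genes respond to the treatment within a line and a time. CCA1 was the clock gene with the most regular response: it was higher on salt in each of the 6 comparisons, by 1.76 to 2.93 on the log2 scale. LUX and PRR5 also rose in some lines and times, by 0.52 to 1.11 where they passed the test, and no clock gene was called lower. RVE8 was called in della5x at 1 h (1.55) and ELF4 in della5x and ga4 at 8 h (0.67 and 0.53). PRR9 was called in della5x at 8 h (1.83), on the strength of 1 library. LHY, the partner of CCA1, passed the test in none of the 6. A gene was called when its adjusted P, from edgeR's quasi-likelihood test with Benjamini-Hochberg adjustment over all genes, was under 0.05 and its log2 fold change was past 0.5 in either direction.

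**Figure D2:**
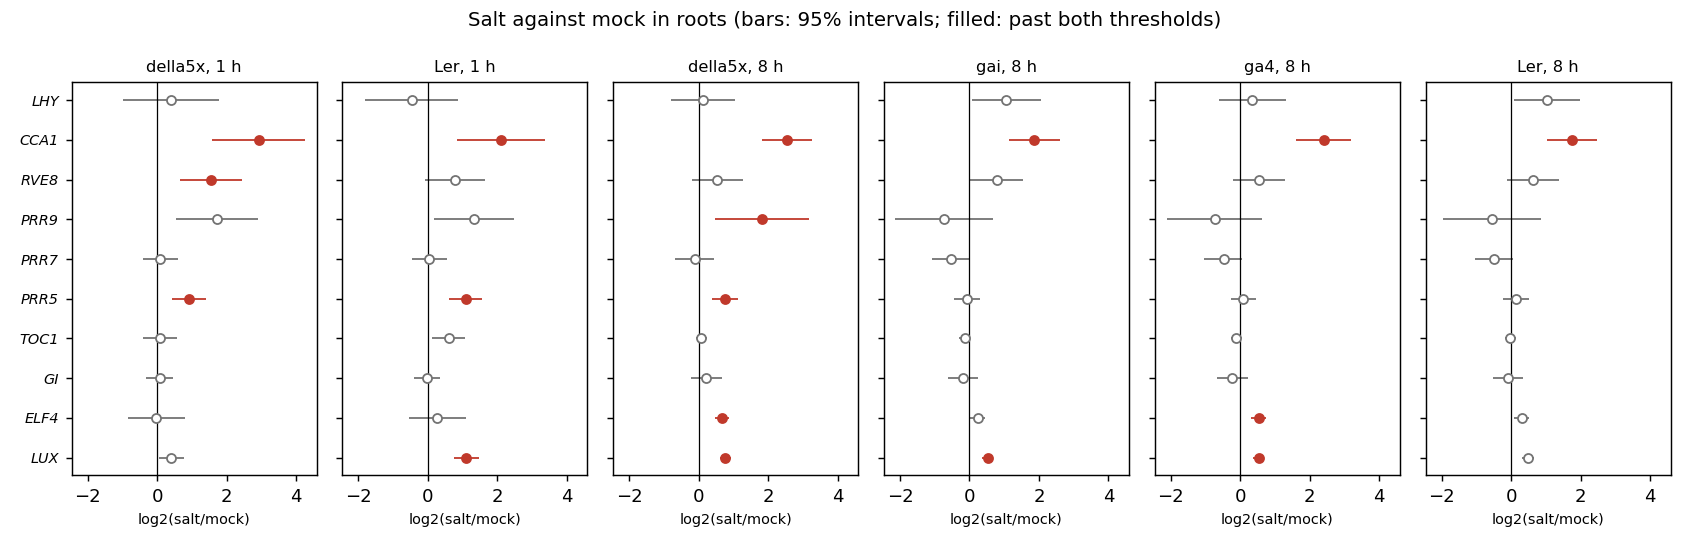
Log2 fold change, salt over mock, of the 10 clock genes in each line and time with 95% intervals from the quasi-likelihood fit; filled red points passed both thresholds. CCA1 is filled in all 6 panels and LHY in none, with intervals for LHY that span 0 in 4 of the 6.

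In della5x at 1 h, CCA1 had 13.4, 10.9 and 13.9 CPM on salt, against 3.44, 1.21 and 0.353 CPM on mock. The salt libraries were alike and the mock libraries spread about as far as the effect, yet the groups did not overlap (log2 fold change 2.93, SE 0.61, adjusted P = 0.01). RVE8 had 8.56, 9.13 and 8.31 CPM on salt, against 4.31, 2.52 and 2.03 CPM on mock, again without overlap (1.55, SE 0.40, adjusted P = 0.0298). PRR5 had 50.7, 71.4 and 43.4 CPM on salt, against 36, 29.8 and 21.6 CPM on mock (0.92, SE 0.22, adjusted P = 0.0209). These 3 of 10 clock genes were called higher and 0 lower, beside 6.62% and 3.52% of the 20073 genes tested. Without the second mock replicate of della5x all 3 calls were lost, with adjusted P of 0.0505 for CCA1, 0.105 for RVE8 and 0.0651 for PRR5, and RVE8 also lost its call without any of 3 other libraries and PRR5 without 1 other. Without the second salt replicate, the library that lay apart, all 3 calls were kept (CCA1 3.02, adjusted P = 0.01; RVE8 1.5, adjusted P = 0.0466; PRR5 0.68, adjusted P = 0.0496), in ranges over the alternatives of 9.89e-06 to 0.0505, 0.00263 to 0.105 and 0.00163 to 0.0683. PRR9 had 13.6, 18.9 and 4.70 CPM on salt, against 5.52, 2.96 and 2.73 CPM on mock, groups that overlap (1.73, SE 0.54, adjusted P = 0.0605). DESeq2 called PRR9 with an adjusted P of 0.00913, and over all alternatives its adjusted P was 0.00913 to 0.176.

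In Ler at 1 h, CCA1 had 17.1, 29 and 12 CPM on salt, against 4.05, 6.59 and 2.73 CPM on mock. No salt library fell within the mock range (2.11, SE 0.57, adjusted P = 0.0275), but leaving out a single library ended the call in 4 of 6 cases, with adjusted P up to 0.0998. LUX, the DNA-binding subunit of the evening complex, had 91.2, 97.3 and 120 CPM on salt, against 45.6, 43.9 and 53.1 CPM on mock. Its libraries were tight within each group and its change was the most precise of the 10 (1.11, SE 0.16, adjusted P = 0.000894). PRR5 had 66.2, 57.2 and 47.1 CPM on salt, against 28.8, 22.7 and 28.6 CPM on mock (1.09, SE 0.22, adjusted P = 0.0068). TOC1 had 200, 165 and 210 CPM on salt, against 104, 114 and 161 CPM on mock, which did not overlap and missed the threshold (0.60, SE 0.22, adjusted P = 0.0908, with 0.00439 to 0.251 over the alternatives). Of the 10 genes, 3 were called higher and 0 lower, beside 8.54% and 5.37% of all genes tested. The median log2 fold change of the 10 was 0.69 in Ler and 0.41 in della5x, against -0.01 and 0 over all genes.

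LHY showed no such shift at 1 h, with 2.48, 5.01 and 2.86 CPM on salt, against 5.33, 0.931 and 1.54 CPM on mock in della5x. In Ler it had 4.54, 7.26 and 2.08 CPM on salt, against 6.63, 8.93 and 3.61 CPM on mock. The groups overlapped in both lines and the intervals of the log2 fold change were wide (-0.98 to 1.79 in della5x and -1.82 to 0.88 in Ler). These intervals overlap those of CCA1 in the same line (1.59 to 4.27 in della5x and 0.85 to 3.37 in Ler). PRR7 and GI had log2 fold changes of 0.09 and 0.07 in della5x and of 0.04 and -0.03 in Ler, with intervals within 0.60 of 0 in either direction. ELF4, the small adaptor of the evening complex, varied more between replicates, with 67.9, 36.1 and 106 CPM on salt, against 48.6, 94.6 and 70.5 CPM on mock in della5x.

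At 8 h CCA1 remained the clock gene with the largest called change in each of the 4 lines, and these calls held under each alternative run. In della5x it had 8.43, 12 and 13.2 CPM on salt, against 1.97, 1.75 and 2.11 CPM on mock (log2 fold change 2.53, SE 0.35, adjusted P = 7.76e-06). In gai it had 4.14, 4.57 and 5.96 CPM on salt, against 1.5, 0.567 and 1.86 CPM on mock (1.87, SE 0.36, adjusted P = 0.000392). In ga4 it had 5.24, 2.28 and 4.61 CPM on salt, against 0.549, 0.552 and 1.17 CPM on mock (2.40, SE 0.38, adjusted P = 5.15e-05). In Ler it had 9.08, 7.79 and 7.41 CPM on salt, against 2.82, 2.01 and 2.29 CPM on mock (1.76, SE 0.34, adjusted P = 0.000339). The salt and mock libraries were apart in every line. The salt libraries of gai and ga4 (2.28 to 5.96 CPM) lay below those of della5x and Ler (7.41 to 13.2 CPM). On mock, CCA1 also lay lower in gai (0.567 to 1.86 CPM) and ga4 (0.549 to 1.17 CPM) than in Ler (2.01 to 2.82 CPM). With edgeR neither was called (log2 fold change -0.84, adjusted P = 0.393 in gai, and -1.64, adjusted P = 0.0994 in ga4). Levels on salt were not tested between lines, and the share of all genes with such gaps was not computed.

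LUX and ELF4 were the other clock genes with salt libraries above mock libraries in all 4 lines at 8 h. The share of all genes that do so was not computed. LUX had 76.9, 70.7 and 82.8 CPM on salt, against 42.9, 47.2 and 45.9 CPM on mock in della5x (0.76, SE 0.08, adjusted P = 1.51e-07). In gai it had 68.3, 67.9 and 68.9 CPM on salt, against 47.8, 45.9 and 48.0 CPM on mock, and in ga4 75.9, 70.3 and 86.6 CPM on salt, against 54.2, 53.4 and 52.2 CPM on mock. The changes there were 0.52 and 0.53 (SE 0.08 each), close to the fold change limit, and a single library left out put either below it (0.50 without the second mock replicate of gai, 0.46 without the third salt replicate of ga4). In Ler LUX had 74.9, 67.6 and 67.8 CPM on salt, against 47.4, 50.8 and 50.4 CPM on mock, and its change of 0.50 (SE 0.08, adjusted P = 3.69e-05) fell just short of the limit on fold change and is not counted.

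ELF4 was called in della5x, with 139, 128 and 159 CPM on salt, against 80.9, 96.9 and 89.8 CPM on mock (0.67, SE 0.10, adjusted P = 2.67e-05). In ga4 it had 132, 165 and 139 CPM on salt, against 105, 92.1 and 103 CPM on mock (0.53, SE 0.10, adjusted P = 0.000453), a call that was lost without the second salt replicate (0.42) or the second mock replicate (0.47), and in the fit of all 36 libraries (adjusted P = 0.132; range over alternatives 8.44e-06 to 0.132). In gai and Ler its salt libraries also lay above its mock libraries, by 0.24 (adjusted P = 0.0914) and 0.32 (adjusted P = 0.021, under the fold change limit). PRR5 passed the test at 8 h in della5x alone, with 30.3, 28.2 and 30.8 CPM on salt, against 17.3, 20.0 and 15.9 CPM on mock (0.75, SE 0.18, adjusted P = 0.00278).

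PRR9, the first of the pseudo-response regulators to peak in the morning, was called in della5x at 8 h on the strength of 1 library. It had 2.44, 2.00 and 13.2 CPM on salt, against 1.53, 2.45 and 0.940 CPM on mock (1.83, SE 0.65, adjusted P = 0.0355). Without the third salt replicate the change was 0.43 with an adjusted P of 0.652, and the call was also lost without the first mock replicate or the third (adjusted P over all alternatives 0.0139 to 0.652). In the other lines PRR9 was between -0.74 and -0.56 on the log2 scale with SE of 0.66 to 0.68, and groups overlapped.

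Of the 10 clock genes 5 were called higher in della5x at 8 h, 2 in gai, 3 in ga4 and 1 in Ler, and 0 were called lower in any line. Over the 20355 genes tested, 13.7% were called higher and 9.03% lower in della5x, 10.6% and 8.35% in gai, 10.7% and 9.01% in ga4, and 12.9% and 10.4% in Ler. The single call in Ler is close to that background share, and the count in della5x includes PRR9. LHY had log2 fold changes of 0.13 (SE 0.45) in della5x, 1.06 (SE 0.48, adjusted P = 0.109) in gai, 0.35 (SE 0.46) in ga4 and 1.04 (SE 0.46, adjusted P = 0.0895) in Ler. In Ler the LHY libraries did not overlap, with 3.56, 5.15 and 5.37 CPM on salt, against 1.51, 2.96 and 2.35 CPM on mock. In gai they did overlap, and LHY was called there (1.39, adjusted P = 0.047; range over alternatives 0.047 to 0.825) when the second salt replicate was left out. PRR7 lay lower on salt in level at 8 h without passing the test. In Ler it had 37.6, 33.4 and 26.2 CPM on salt, against 52.7, 46.6 and 37.8 CPM on mock, which did not overlap (-0.50, SE 0.26, adjusted P = 0.159). Its log2 fold change was -0.53 (adjusted P = 0.155) in gai, -0.48 (adjusted P = 0.19) in ga4 and -0.12 (adjusted P = 0.772) in della5x, and in these 3 lines the groups overlapped. TOC1 had log2 fold changes between -0.14 and 0.08 in the 4 lines, with intervals within 0.30 of 0, and its groups were apart in gai alone (130 to 133 CPM on salt, against 134 to 156 CPM on mock), so that a change of the size called here was not seen for it at 8 h.

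Because CCA1 and LHY are close relatives with overlapping function, their ratio was followed within each library as the log2 CPM of CCA1 minus that of LHY. The transcripts differ in length, so the shift between groups and not the ratio itself is read, and this ratio was chosen after the values were seen. At 1 h it averaged 1.91 ± 0.70 on salt and -0.71 ± 1.1 on mock in della5x, and 2.12 ± 0.32 on salt and -0.51 ± 0.17 on mock in Ler (SD, n = 3 each). At 8 h it averaged 1.61 ± 0.40 on salt and -0.60 ± 0.54 on mock in della5x, 1.05 ± 0.78 and -0.08 ± 0.57 in gai, 0.58 ± 0.84 and -1.23 ± 0.31 in ga4, and 0.79 ± 0.47 and 0.09 ± 0.70 in Ler. Salt and mock libraries did not overlap in 4 of the 6 comparisons, and they overlapped in gai and in Ler at 8 h. In an exact two-sided permutation test over the libraries of each comparison, p was 0.1 in those 4, 0.2 in gai and 0.3 in Ler at 8 h, and 0.15 to 0.3 after adjustment over the 6, where 0.1 is the smallest p that 3 against 3 can give. The test could therefore not fall under 0.05 in any comparison. It was also run on the libraries from which the ratio was chosen, so no conclusion is drawn from it.

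**Figure D3:**
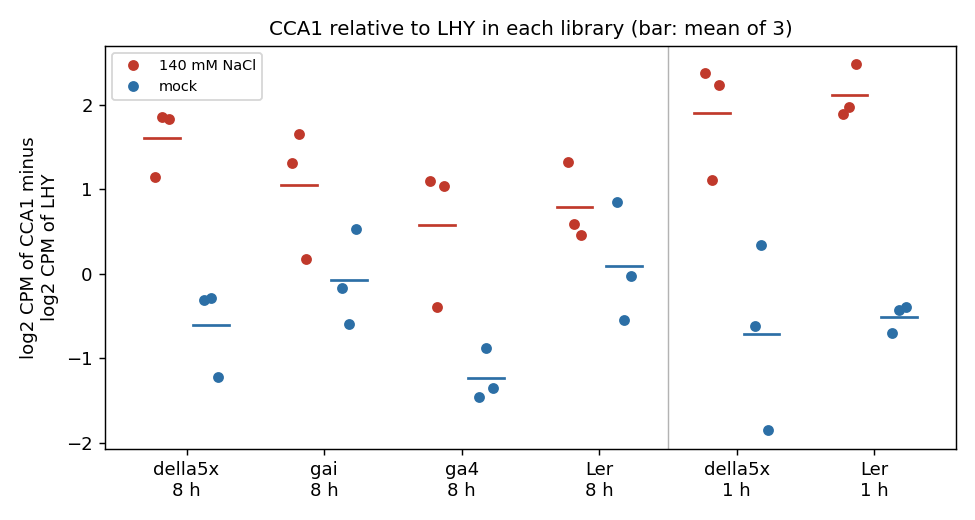
Log2 CPM of CCA1 minus log2 CPM of LHY in each library, salt (red) left of mock (blue), with bars at the mean of 3 replicates and the line between 8 h (left) and 1 h (right). The 3 salt libraries of Ler at 1 h sit at 1.89 to 2.48, all above its mock libraries at -0.70 to -0.39, whereas at 8 h the Ler groups overlap.

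The second question was whether the response to salt differed between the mutants and Ler, tested as the difference of the log2 fold changes at an adjusted P under 0.05. No clock gene passed in della5x at 1 h (0% of all genes called), in della5x at 8 h (0%), in gai (0.0344%, or 7 genes) or in ga4 (0%). Without adjustment, P was under 0.05 for 1 clock gene in della5x at 1 h, 4 in della5x at 8 h, and 0 in gai and ga4 with edgeR, as it was for 4.11%, 4.72%, 5.27% and 5.04% of all genes, and DESeq2 called 0 clock genes in each. The gene at 1 h was LUX, with a smaller response in della5x than in Ler by -0.69 (SE 0.23, edgeR adjusted P = 1). Those at 8 h were PRR9 (2.39, SE 0.94), PRR5 (0.59, SE 0.25), ELF4 (0.36, SE 0.14) and LUX (0.27, SE 0.11), each with a higher response in della5x, and adjusted P of 0.996 to 1. For CCA1 the difference in response from Ler was 0.82 (95% interval -0.95 to 2.60) in della5x at 1 h, 0.76 (-0.22 to 1.75) in della5x at 8 h, 0.11 (-0.88 to 1.1) in gai and 0.64 (-0.41 to 1.68) in ga4, so that a response larger by 1 on the log2 scale than that of Ler was within each of the 4 intervals and one smaller by 1 within none. The calls that differ between lines above are therefore not shown to be differences between lines.

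Lines were also compared on mock medium. No clock gene was called in della5x at 1 h, where 0.0979% of genes were higher and 0.067% lower than in Ler, in della5x at 8 h (0.163% and 0.321%), in gai (0.321% and 0.468%) or in ga4 (0.702% and 0.611%). With edgeR, unadjusted P was under 0.05 for 1, 0, 2 and 2 of the 10 genes in those comparisons, about the share of all genes (13%, 9.35%, 14.5% and 12.4%). CCA1 in ga4 came nearest, with 0.549, 0.552 and 1.17 CPM in ga4, against 2.82, 2.01 and 2.29 CPM in Ler. These groups did not overlap (-1.64, SE 0.45, adjusted P = 0.0994), and DESeq2 called CCA1 with an adjusted P of 0.0216 (range over alternatives 0.0216 to 0.345). LUX in della5x at 1 h had 61.2, 80.0 and 77.3 CPM, against 45.6, 43.9 and 53.1 CPM in Ler, again without overlap (0.61, SE 0.13, adjusted P = 0.169). DESeq2 (adjusted P = 0.0103) and the fit of all libraries (adjusted P = 0.00322) called it, in a range of 0.00322 to 0.597. On mock medium the sum of the green tissue genes also differed between lines, with 42 to 60.9 CPM in della5x against 76.7 to 153 CPM in Ler at 1 h, and at 8 h 58.9 to 91.6 CPM in della5x and 220 to 263 CPM in gai against 134 to 169 CPM in Ler, and its part in these values was not tested. At 8 h LUX in della5x lay below Ler, with 42.9, 47.2 and 45.9 CPM, against 47.4, 50.8 and 50.4 CPM in Ler. This difference was small and not called (-0.13, SE 0.08, edgeR adjusted P = 0.693).

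Time was separated from salt by comparing 8 h with 1 h on mock medium. GI, PRR7 and PRR5 were lower at 8 h in both lines in level, and they were called, with LUX, in della5x. In della5x GI had 86.7, 86.6 and 70.0 CPM at 8 h, against 159, 151 and 120 CPM at 1 h (log2 fold change -0.82, SE 0.17, adjusted P = 0.00662). PRR7 had 50.4, 36.2 and 22.3 CPM at 8 h, against 79.9, 78.3 and 56.8 CPM at 1 h (-0.98, SE 0.25, adjusted P = 0.0265). PRR5 had 17.3, 20.0 and 15.9 CPM at 8 h, against 36, 29.8 and 21.6 CPM at 1 h (-0.71, SE 0.18, adjusted P = 0.0233), and LUX 42.9, 47.2 and 45.9 CPM at 8 h, against 61.2, 80.0 and 77.3 CPM at 1 h (-0.68, SE 0.13, adjusted P = 0.00366). None of the 4, which were picked by their call, overlapped between times, and the share of all genes without overlap was not computed. So 4 of 10 clock genes were called lower and 0 higher, beside 3.52% and 1.04% of the 20488 genes tested. GI and LUX kept their call with any 1 library left out, whereas PRR7 and PRR5 lost theirs in 4 of 6 such fits each (adjusted P up to 0.104 and 0.0861).

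**Figure D4:**
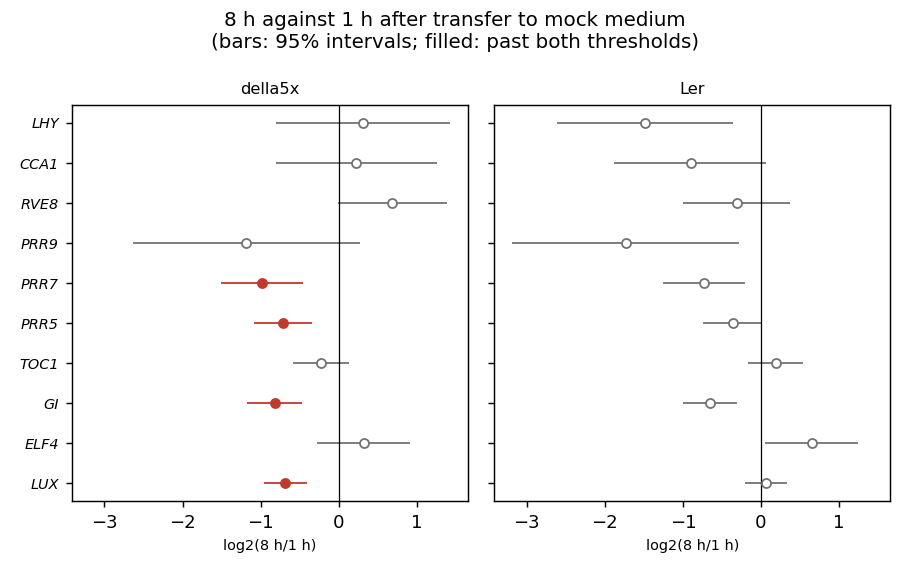
Log2 fold change, 8 h over 1 h on mock medium, of the 10 clock genes in della5x and Ler with 95% intervals; filled red points passed both thresholds. PRR9, PRR7, PRR5 and GI lie left of 0 and ELF4 right of 0 in both lines, LUX lies at -0.68 in della5x and 0.06 in Ler, and 4 points are filled in della5x and 0 in Ler.

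In Ler no clock gene was called between the times on mock, beside 0.0195% of all genes higher and 0.239% lower. GI came nearest, with 102, 82.8 and 74.3 CPM at 8 h, against 149, 143 and 116 CPM at 1 h (-0.65, SE 0.17, adjusted P = 0.125). DESeq2 called GI there (adjusted P = 0.0195, in a range of 0.0195 to 0.747). PRR7 had 52.7, 46.6 and 37.8 CPM at 8 h, against 84.6, 79.0 and 65.4 CPM at 1 h (-0.73, SE 0.25, adjusted P = 0.328), and LHY 1.51, 2.96 and 2.35 CPM at 8 h, against 6.63, 8.93 and 3.61 CPM at 1 h (-1.48, SE 0.54, adjusted P = 0.377). Neither overlapped between times, nor did PRR9, PRR5, GI and ELF4, and the share of all genes without overlap was not computed. ELF4 was the higher at 8 h, with 90.7, 96.6 and 100 CPM at 8 h, against 43.4, 54.3 and 85.1 CPM at 1 h (0.65, SE 0.29, adjusted P = 0.56). Without adjustment 5 of the 10 (LHY, PRR9, PRR7, GI and ELF4) had P under 0.05 in Ler, as had 7.94% of all genes. The change over time did not differ between della5x and Ler for any clock gene at an adjusted P under 0.05 (0% of all genes). Without adjustment LHY, RVE8 and LUX were under 0.05, as were 4.27% of all genes, and DESeq2 called 0 clock genes. LUX had the smallest unadjusted value, for a difference of -0.75 (SE 0.18, edgeR adjusted P = 0.988).

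The response to salt was then compared between the times. In Ler, PRR5 and LUX responded less at 8 h than at 1 h, by -0.93 (SE 0.25, adjusted P = 0.0167) and -0.61 (SE 0.18, adjusted P = 0.0294), and these 2 of 10 genes are near the 15.4% of all genes called in either direction. PRR5 lost its call without the first salt replicate of Ler at 1 h (adjusted P = 0.0586), and LUX lost its call in 7 of 12 fits without a single library (adjusted P up to 0.107). In della5x 0 clock genes were called, beside 10.3% of all genes, with P under 0.05 before adjustment for RVE8 alone (24.9% of all genes) and 0 calls by DESeq2. For CCA1 the response at 8 h minus that at 1 h was -0.40 (95% interval -1.76 to 0.96) in della5x and -0.34 (-1.67 to 0.99) in Ler.

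Replicates of 1 group differed more in LHY, CCA1, PRR9 and RVE8 than in most genes. These 4 also had low mean levels (log2 CPM of 1.54, 1.96, 1.51 and 2.37, against 4.23 for the median gene). They were not compared with genes of like level, and the part of level in their spread was not tested. At 8 h the SD of log2 CPM within groups was 0.56 for LHY, 0.45 for CCA1, 0.84 for PRR9, 0.48 for RVE8 and 0.12 for ELF4, where the median gene had 0.21. At 1 h it was 0.87 for LHY, 0.87 for CCA1, 0.78 for PRR9 and 0.54 for both RVE8 and ELF4, where the median gene had 0.23. TOC1 and LUX were at 0.08 each at 8 h, against 0.30 and 0.21 at 1 h. The deviations of PRR7 and ELF4 were read against those of GI, a pairing chosen after the values were seen. The library with the highest GI in its group also had the highest PRR7 in 9 of 12 groups and the lowest ELF4 in 9 of 12, where the median over 19216 genes was 4 groups for each. As many groups or more were reached by 0.442% of genes for the highest and by 0.343% for the lowest level. The other clock genes showed less of this or none: the library with the highest GI had the highest PRR5 in 7 groups (reached by 7.62% of genes), the highest RVE8 in 6 (19.8%), the highest LHY, CCA1 and PRR9 in 5 each (39.8%), the highest TOC1 in 4 (64%) and the highest LUX in 1 (99.5%).

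**Figure D5:**
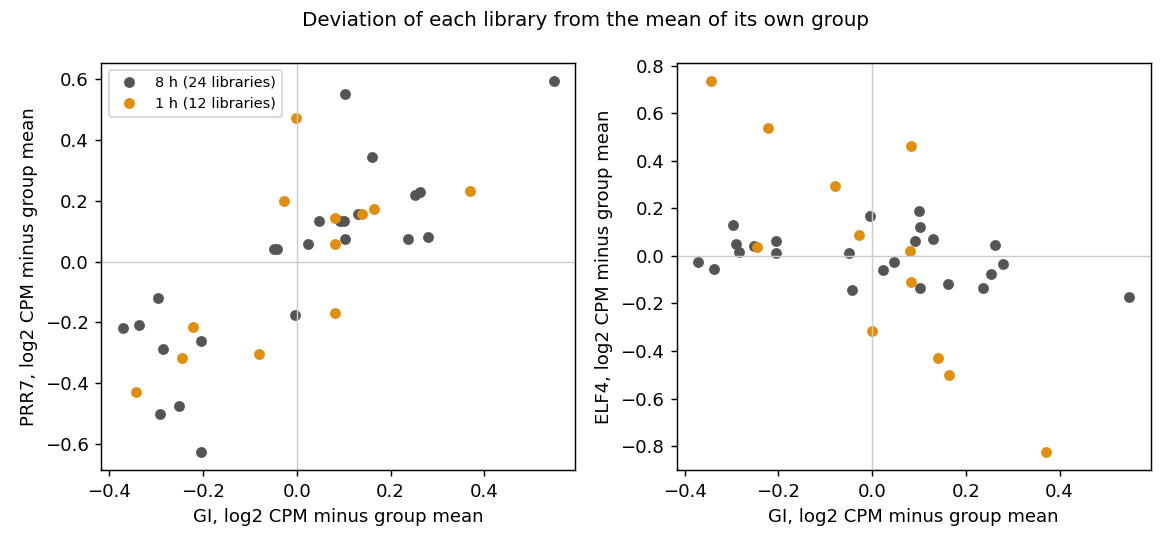
Deviation of each library from the mean of its own group in log2 CPM, GI on the x axis against PRR7 (left) and ELF4 (right), for the 24 libraries of 8 h (grey) and the 12 of 1 h (orange). The library highest in GI is also highest in PRR7 in 9 of 12 groups and lowest in ELF4 in 9 of 12, with exceptions on both sides; the libraries of a group share their treatment and line.

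Levels were also read against the place of each library in the labels. Titles count upwards over all 36 libraries, and each group is a run of 3 consecutive titles. PRR7 was lowest in the last-numbered library of its group in 12 of 12 groups, which was true of 1 gene of 19216, PRR7 itself. GI was lowest there in 10 of 12 groups, as often as in 0.338% of genes, and PRR9 in 9 of 12, as often as in 1.5%. ELF4 was lowest there in 0 of 12 groups. LHY and CCA1 showed no such order, at 3 and 4 of 12 groups. This was looked for after the values were seen, and the sources give no harvest, day or batch for the title numbers, so libraries were not paired by them. Each contrast of salt, line or time above has the same number of last-numbered libraries in both of its groups. That balance bears on the fold changes, while the spread within groups that the tests used still holds any such order. Its part in the tests of PRR7, GI and PRR9, including those that were not called, was not tested.

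Likeness of pattern was taken across the 12 group means. PRR7 and GI had a Pearson r of 0.91 of their log2 mean CPM, PRR9 and PRR5 0.87, and ELF4 ran against PRR7 (-0.86) and GI (-0.80). CCA1 and RVE8 had an r of 0.87, and LUX had 0.82 with PRR5 and 0.76 with CCA1, but 0.25 with PRR7 and 0.00 with ELF4. LHY had 0.68 with CCA1. These are descriptions over 12 groups that share lines and treatments. Over all tested genes the closest in pattern to CCA1 was ETC1 (r 0.959), to LHY AT4G38120 (0.86), to RVE8 AT5G45850 (0.96) and to LUX HSFA6B (0.98), a heat shock factor. AT4G16920 was closest to both PRR7 (0.967) and GI (0.95), LNK4 (AT5G06980) to PRR9 (0.968), AT5G11650 to PRR5 (0.983), AT5G09390 to TOC1 (0.918) and UPB1 to ELF4 (0.957). The second closest were AT1G72690 for CCA1 (0.949), ETO1 for LHY (0.849), AT5G25520 for RVE8 (0.953), AT1G73850 for LUX (0.973), AT4G29100 for PRR7 (0.965), ABCG34 for GI (0.944), MYB39 for PRR9 (0.958), MYB49 for PRR5 (0.969), AT2G16365 for TOC1 (0.891) and RIP5 for ELF4 (0.956).

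A wider list held 35 clock-linked genes, none of them among the 10. At 1 h 12 rose and 1 fell in della5x, beside 6.62% and 3.52% of all genes, and 12 rose and 2 fell in Ler, beside 8.54% and 5.37%. RVE1, a MYB factor of the same family that links the clock to auxin, rose by 2.06 (SE 0.17) in della5x and by 1.74 (SE 0.17) in Ler, and AT4G01280 by 0.83 and 0.99 (SE 0.15 each). LNK4, of a family of coactivators that work with RVE8, rose by 3.36 (SE 0.60) in della5x, and CDF2, a Dof repressor in the day-length pathway, by 2.03 (SE 0.26) in Ler. At 8 h 11 rose and 5 fell in della5x, 5 and 2 in gai, 4 and 5 in ga4, and 5 and 4 in Ler. Over all genes the shares were 13.7% and 9.03%, 10.6% and 8.35%, 10.7% and 9.01%, and 12.9% and 10.4% in the same order, so that the counts in gai, ga4 and Ler were near the background. The same 3 genes had the smallest P in each of the 4 lines. COR27, a cold-induced clock-linked gene, rose by 3.11 in della5x, 2.00 in gai, 2.33 in ga4 and 2.47 in Ler (SE 0.25 to 0.26), and CDF1, a relative of CDF2, rose by 3.41, 2.45, 2.22 and 3.23 in that order of lines. CHE, a TCP factor known to repress CCA1, was lower on salt, at -1.30 in della5x, -1.32 in gai, -1.58 in ga4 and -1.71 in Ler (SE 0.21 to 0.22).

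On mock medium 0 of the wider list were called between any line and Ler. Between 8 h and 1 h on mock, 0 were called in Ler, while 7 were lower at 8 h and 0 higher in della5x (beside 3.52% and 1.04% of all genes), among them FKF1, a blue-light receptor that acts with GI (-0.90, SE 0.20), TIC (-0.66, SE 0.15) and LNK1 (-1.02, SE 0.24). The response to salt was lower at 8 h than at 1 h for 7 genes of the list in Ler and for 3 in della5x, and higher for 0 in Ler and 2 in della5x, near the 15.4% and 10.3% of all genes called in either direction. CDF2 (-1.76, SE 0.33), RVE7 (-2.07, SE 0.40) and LKP2, a relative of FKF1 (-0.82, SE 0.21), had the smallest P in Ler, and RVE1 (-1.42, SE 0.26), RVE7 (-1.97, SE 0.40) and COR27 (3.14, SE 0.69) in della5x.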

How the data were processed

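RNA of 36 root libraries was compared in 12 groups of 3, set by the genotype, treatment and time in the sample labels. The authors trimmed reads with fastp, mapped them to TAIR10 with Hisat2, counted them with HTSeq-Count and deposited raw counts of 28775 genes without normalization, 28009 of which were found in the TAIR10.1 annotation. The counting mode and use of strand are not given in the sources used here. Library totals were 16772984 to 23811804. CCA1, LHY and PRR9 had few counts and wide errors, and the part of depth in these errors was not tested. Replicates were separate pools of seedlings. The labels carry no replicate numbers and no libraries were paired. Replicate pairs differed by 4.53 to 90.3 times the sampling noise, so none was a duplicate.

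The analysis used edgeR 4.0.16 in R 4.3.3 (glmQLFit and glmQLFTest, TMM, filterByExpr at min.count 10 and min.total.count 15), fitted on all genes. Salt and its interaction with genotype were fitted on all libraries of a time, genotypes on the mock libraries of a time, and times on the 24 libraries of della5x and Ler. Calls needed a Benjamini-Hochberg adjusted P under 0.05 with, for direct comparisons, a change past 0.5 on the log2 scale. Log2 CPM used a prior count of 2. Wherever groups are said not to overlap, the share of all genes without overlap was not computed. Alternatives were RLE size factors, no filter beyond 1 count, DESeq2 1.42.0, all libraries in 1 fit, no fold change limit and each library left out in turn. The genes named are the 10 members, the 3 genes with the smallest P among those called in the wider list for each comparison, and the 2 genes most alike in pattern to each member. The members and lists were chosen with earlier results of these data known.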

Additional observations from a re-analysis of the deposited data

Results flagged for a closer look

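The response of PRR5 to salt in Ler was smaller at 8 h than at 1 h by -0.93 on the log2 scale (edgeR's quasi-likelihood test, adjusted P = 0.0167), and that of LUX by -0.61 (adjusted P = 0.0294). Both were singled out because the difference between the times passed the test itself, as it did for 15.4% of all genes. As 2 of 10 clock genes is near that share, the count shows nothing particular to clock genes. With a single library left out, LUX lost its call in 7 of 12 fits (edgeR adjusted P up to 0.107) and PRR5 in 1 of 12. PRR5 on salt was above mock in 3 of 3 libraries at both times in Ler, with a log2 fold change of 0.15 at 8 h and 1.09 at 1 h, and LUX likewise with 0.50 at 8 h and 1.11 at 1 h. The change of PRR5 at 8 h did not pass the test (edgeR adjusted P = 0.564), and that of LUX at 8 h fell short of the fold change limit. In della5x the same differences were -0.17 for PRR5 and 0.36 for LUX, neither past the test. Groups of 3 are too small for a test of outlying libraries.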

How the results depend on the processing

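No libraries were paired, since the labels carry no replicate numbers, and a fit blocked on the order of titles was not run. The number of clock genes called moved by over 1.5 times in 5 cases outside the leave-one-out fits. Without the fold change limit 3 were called for salt in Ler at 8 h in place of 1 (ELF4 and LUX were added). On mock, della5x against Ler at 1 h had 1 call with DESeq2 and 1 in the fit of all libraries (LUX), ga4 against Ler had 1 with DESeq2 (CCA1), and 8 h against 1 h in Ler had 1 with DESeq2 (GI), each in place of 0. RLE size factors and the absence of the filter moved no count by that much. With 1 library left out, the calls for salt were 0 to 3 in della5x and 2 to 3 in Ler at 1 h, and at 8 h 4 to 5 in della5x, 1 to 3 in gai, 2 to 3 in ga4 and 1 to 2 in Ler; they were 2 to 4 for 8 h against 1 h in della5x on mock, 1 to 3 for the difference between times in the response of Ler, and 0 to 0 in the other comparisons. Of the single-gene changes under all alternatives, 2390 kept their side of the threshold, 35 lost a call, 15 gained one and 0 turned a call round in direction. CCA1, LHY, RVE8 and PRR9 had the fewest counts, and the causes of these shifts were not tested.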
